A study of Homo sapiens with 7 samples.

Results

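The 10 loci described here are genes of the circadian clock, either coding for the dimer that acts through E-boxes or for its inhibitors, targets and feedback partners: CLOCK, ARNTL, PER1, PER2, PER3, CRY1, CRY2, NR1D1, BHLHE40 and DBP. MYCN binding at them was read from the deposited peak list of Kelly cells. Each locus was taken as an hg19 window that spans the gene plus about 10 kb on either side, and a peak summit (the position of locally highest signal) belonged to a locus when it fell in that window. Summits were assigned by gene position and by no binding value, while the loci themselves were chosen with earlier results of these data known. The windows total 706 kb and held 49 of the 64657 summits of the list, in 34 of its 47765 intervals.

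Kelly is an established human neuroblastoma line with amplified MYCN and an activating mutation of the receptor kinase ALK, and TAE684 is an ALK inhibitor. In the series, TAE684-resistant Kelly cells received TAE684 at 1 µM for 48 h (2 MYCN ChIP samples and 2 inputs), and TAE684-sensitive Kelly cells received DMSO for 48 h (2 MYCN ChIP samples and 1 input). Both states are Kelly cells, and neither the copy number nor the level of MYCN in each state was examined here. The list named for the resistant cells was the same as that of the sensitive cells in 64657 of 64657 rows. No comparison between resistant and sensitive cells was therefore made, and every value refers to the sensitive, DMSO-treated cells. The 2 ChIP samples of the sensitive cells were deposited as 1 common list, so no value below carries a replicate error and no test was made.

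In the mammalian clock, CLOCK and ARNTL (also called BMAL1) form a basic helix-loop-helix dimer that binds the E-box CACGTG and activates the PER, CRY, NR1D1, BHLHE40 and DBP genes. PER and CRY proteins then inhibit that dimer, NR1D1 represses ARNTL, BHLHE40 competes at E-boxes, and DBP carries the rhythm to output genes. MYCN, as a dimer with MAX, binds the same CACGTG hexamer.

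The promoters of 6 loci are shown as examples. PER1 and BHLHE40 carry CACGTG, and NR1D1 and PER2 carry its variant CACGTT. DBP, with a strongly enriched start, and ARNTL, with a weakly enriched one, have neither. The ARNTL promoter shown, 1 of 2, does hold the general form CANNTG. CRY1, CRY2 and CLOCK also carry the variant and are not shown. They are RefSeq sequences of build GRCh38.p14, from 250 bases before to 50 bases after the gene start, in the direction of transcription. Their coordinates belong to that build and were not set against the hg19 peaks. Capitals mark CACGTG and its variant CACGTT, which reads AACGTG on the other strand.
PER1, chr17:8152355-8152654, minus strand: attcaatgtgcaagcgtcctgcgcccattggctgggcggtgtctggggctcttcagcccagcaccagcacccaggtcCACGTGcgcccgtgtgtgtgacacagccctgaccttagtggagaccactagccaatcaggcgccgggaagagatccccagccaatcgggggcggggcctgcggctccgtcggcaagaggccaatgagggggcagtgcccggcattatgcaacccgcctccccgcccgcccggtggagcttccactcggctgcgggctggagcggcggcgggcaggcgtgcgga
BHLHE40, chr3:4979187-4979486, plus strand: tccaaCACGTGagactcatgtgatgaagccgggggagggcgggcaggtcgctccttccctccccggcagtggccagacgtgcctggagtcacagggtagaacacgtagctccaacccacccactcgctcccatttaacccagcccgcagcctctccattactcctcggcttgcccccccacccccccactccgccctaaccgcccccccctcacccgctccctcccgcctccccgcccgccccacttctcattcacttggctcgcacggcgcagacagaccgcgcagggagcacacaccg
NR1D1, chr17:40100540-40100839, minus strand: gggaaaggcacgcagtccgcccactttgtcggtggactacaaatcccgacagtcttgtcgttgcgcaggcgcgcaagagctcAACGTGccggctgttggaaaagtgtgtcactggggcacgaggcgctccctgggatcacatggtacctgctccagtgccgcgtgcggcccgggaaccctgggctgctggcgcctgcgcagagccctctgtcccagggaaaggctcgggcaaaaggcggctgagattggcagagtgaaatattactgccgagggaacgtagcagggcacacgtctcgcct
PER2, chr2:238288561-238288860, minus strand: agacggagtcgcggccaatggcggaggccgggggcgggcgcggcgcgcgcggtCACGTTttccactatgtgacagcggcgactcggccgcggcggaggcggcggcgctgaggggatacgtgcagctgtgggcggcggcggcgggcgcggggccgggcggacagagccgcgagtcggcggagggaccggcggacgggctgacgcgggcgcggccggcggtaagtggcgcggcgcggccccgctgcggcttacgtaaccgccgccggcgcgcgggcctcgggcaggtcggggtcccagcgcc
DBP, chr19:48637330-48637629, minus strand: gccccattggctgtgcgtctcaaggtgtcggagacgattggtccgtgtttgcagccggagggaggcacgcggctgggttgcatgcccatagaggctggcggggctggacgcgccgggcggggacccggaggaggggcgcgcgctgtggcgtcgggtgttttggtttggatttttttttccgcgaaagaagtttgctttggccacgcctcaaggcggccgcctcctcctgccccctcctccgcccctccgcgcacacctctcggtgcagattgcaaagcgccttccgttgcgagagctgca
ARNTL, chr11:13277540-13277839, plus strand: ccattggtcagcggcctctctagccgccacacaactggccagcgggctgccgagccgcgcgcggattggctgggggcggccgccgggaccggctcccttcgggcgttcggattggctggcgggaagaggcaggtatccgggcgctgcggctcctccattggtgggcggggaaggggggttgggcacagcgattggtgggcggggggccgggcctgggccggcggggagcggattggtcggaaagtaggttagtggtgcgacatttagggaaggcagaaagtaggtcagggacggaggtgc

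The canonical CACGTG was in the promoters of 2 of the 10 loci, PER1 and BHLHE40. It starts 173 bases before the gene start in PER1 and 245 bases before it in BHLHE40. The variant CACGTT, searched on both strands, was in 5 loci, NR1D1, PER2, CRY1, CRY2 and CLOCK. It starts 168 bases before the gene start in NR1D1, where it reads AACGTG, and 197 bases before it in PER2. RefSeq gives 14 promoters for the 10 loci, since PER3, CRY2, CLOCK and ARNTL have 2 each. CACGTG was in 2 of these 14 and in 7.26% of all 35116 RefSeq promoters of that length. The variant was in 5 of 14 and in 5.34% of all, and the general form CANNTG, which includes CACGTG, in 9 of 14 and in 68.7%. A match describes these letters only, and E-boxes outside these 300 bases were not searched.

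MYCN summits were found at all 10 clock loci, and at 10 of 10 a summit lay within 2 kb of the estimated gene start. The start was estimated as the window edge on the 5′ side moved 10 kb inward, and was not checked against an hg19 annotation. It is least certain for PER2, where the window and the RefSeq gene length differed most. Along chromosomes 1 to 22 and X, 5.40% of consecutive 4-kb tiles held a summit. For whole windows, 24.5% of 26-kb tiles (the width of the BHLHE40 window) and 60.1% of 140-kb tiles (the CLOCK window) held at least 1 summit. The clock windows had 69.4 summits per Mb and the whole list had 21.3, a ratio of 3.26. All clock windows hold a gene and many tiles do not, and the share of this ratio that any set of genes would give was not tested.

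At the median, clock summits had a higher fold enrichment than the list, and none came near the highest values of the list. Fold enrichment is the authors' ratio of the ChIP pileup to the local background at a summit. It had a median of 7.81 at the 49 clock summits (95% order-statistic interval 6.07 to 9.11) and of 5.35 over the whole list. The lower and upper quartiles were 4.76 and 9.50 at the clock summits, and 3.90 and 7.54 over the list. Of the 49 clock summits, 36 reached a fold enrichment of 5, which is 73.5% (exact 95% interval 58.9 to 85.1), against 55.8% of the list. A value of 10 was reached by 12 clock summits, or 24.5% (13.3 to 38.9), against 12.0% of the list. These intervals treat summits as independent, although summits of 1 interval are not. Of the 49 clock summits, 28 lay within 2 kb of an estimated gene start, and the list was not matched for gene starts. The difference that any set of genes would give was not tested, for these values or for the fragments and widths below. The highest clock value was 16.3, at NR1D1, and the highest of the list was 57.2.

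**Figure D1:**
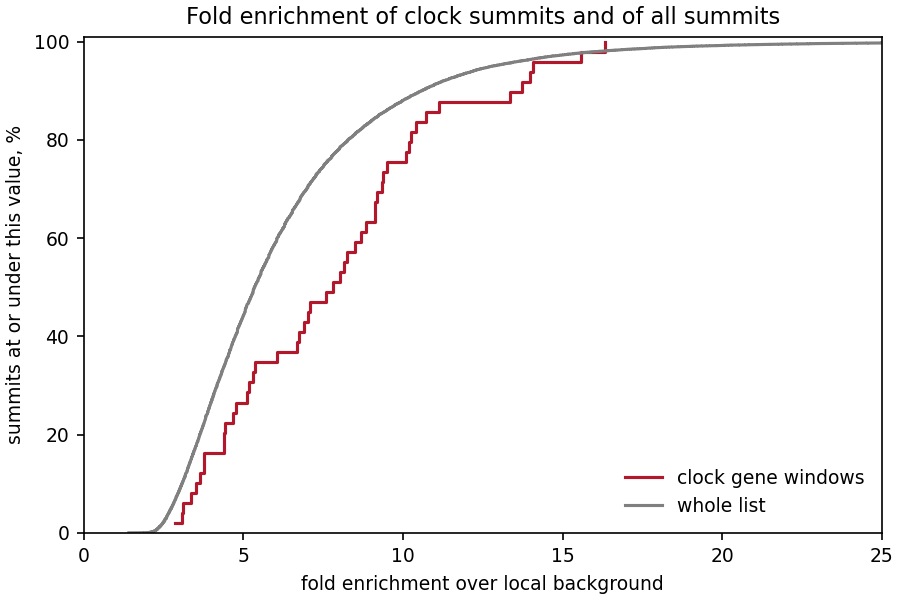
The cumulative share of summits (vertical axis, percent) at or under each fold enrichment (horizontal axis) is plotted for the 49 clock summits in red and for all 64657 summits in grey. The clock curve lies to the right through the middle, with medians of 7.81 and 5.35, and ends at 16.3.

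The number of ChIP fragments over each summit and the local background in input fragments were recovered from the authors' fold enrichment and p-value. The median number of ChIP fragments was 98 at clock summits (quartiles 63 and 171) and 63 over the list (quartiles 41 and 102). The median background was 8.12 input fragments at clock summits and 7.56 over the list, where 1.61 is the genome-wide mean. The medians of the backgrounds were close, while that of the ChIP fragments was higher at clock summits. Median interval width was 441 bp for the 34 clock intervals and 279 bp for the list.

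**Figure D2:**
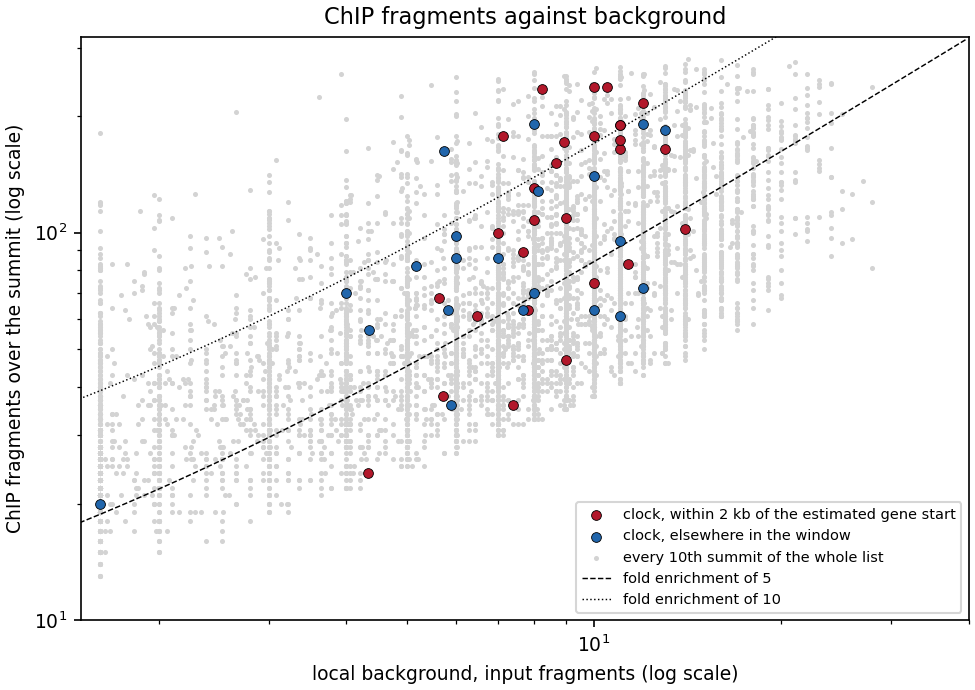
ChIP fragments over a summit (vertical, log scale) are plotted against the local background in input fragments (horizontal, log scale), for clock summits within 2 kb of the estimated start in red, clock summits elsewhere in blue, and every 10th summit of the list in grey. Dashed and dotted lines mark fold enrichments of 5 and 10, and 1 of the 49 clock summits, in ARNTL, sits at the genome-wide mean background of 1.61.

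The activator genes had the lowest strongest summits of the 10 loci. CLOCK encodes the basic helix-loop-helix partner of ARNTL. Its 140-kb window on chromosome 4 held 4 summits, and all 4 lay within 2 kb of the estimated start. An interval of 1579 bp, from 56411895 to 56413473, held 3 of them, with fold enrichments of 8.14, 6.68 and 7.09 at 56412175, 56412632 and 56413054. They had 100, 89 and 109 ChIP fragments over backgrounds of 7.0, 7.70 and 9.0. The counting intervals of these 3 overlapped (6.65 to 9.88, 5.38 to 8.19 and 5.84 to 8.53), so none stood out from the others. The summit nearest the estimated start, 334 bp from it at 56413666, had a fold enrichment of 3.11. RefSeq gives CLOCK 2 promoters, so which summit is nearest a start depends on this estimate. The rest of the CLOCK window, which includes nearly all of this long gene, held no summit.

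ARNTL, the partner of CLOCK, had the lowest strongest summit and the fewest ChIP fragments of the 10 loci. Its 130-kb window on chromosome 11 held 2. The summit near the start, 591 bp from it at 13299591, had 24 ChIP fragments over a background of 4.34, so that its fold enrichment was 3.07. Its −log10 q was 2.67 where the lowest in the list was 2.01, which places this summit near the threshold of the list, and 9.90% of all summits had a lower fold enrichment. The other summit lay inside the gene, 66.9 kb from the start at 13365879. It had 20 ChIP fragments over the genome-wide background of 1.61 and a fold enrichment of 5.30. Of 130-kb tiles with at least 1 summit, 76.5% held at least as many summits as ARNTL and 87.1% reached at least its highest fold enrichment.

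The period genes, whose proteins inhibit CLOCK and ARNTL, all had a summit near their start with a fold enrichment above 10. At PER1, on the short arm of chromosome 17, the 33-kb window held 10 summits in 8 intervals. At the start, 130 bp from the estimate at 8055870, the fold enrichment was 10.2 with 189 ChIP fragments over a background of 11. A further summit 1402 bp into the gene, at 8054598, had 10.1. Upstream of the gene, 6 summits lay between 1.01 and 6.25 kb from the start, with fold enrichments of 3.50 to 9.50. The strongest PER1 summit was at the other end of the gene. At 8042359, about 0.641 kb beyond the estimated 3′ end, it had 191 ChIP fragments over a background of 8.0 and a fold enrichment of 13.7. RefSeq places 2 transfer RNA genes, TRS-CGA1-1 and TRT-AGT5-1, on that side of PER1, and VAMP2 on the upstream side. Of occupied 33-kb tiles, which were not matched for genes, 1.21% held at least as many summits.

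PER2, on chromosome 2, had 2 summits in 59 kb. The one near the start, at 239197648 in an interval of 984 bp, had 216 ChIP fragments over a background of 12.0 and a fold enrichment of 10.7. The estimated start lies 1.35 kb from it. The other lay 33.6 kb into the gene at 239165357, with 86 ChIP fragments and a fold enrichment of 8.02. Of occupied 59-kb tiles, 65.2% held at least as many summits as PER2 and 24.3% reached at least its highest fold enrichment.

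PER3, on chromosome 1, had 3 summits, and all 3 lay within 0.391 kb of the estimated start. At 7844359 the fold enrichment was 13.4, with 238 ChIP fragments over a background of 10.5. At 7844009, in the same interval of 902 bp, it was 8.85 with 164 fragments, and at 7843609 it was 4.68 with 63. The 238 fragments of PER3 equal the highest number at any clock summit, which NR1D1 also reached. The rest of the 82-kb window held none.

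The cryptochrome genes encode the other inhibitors of the CLOCK and ARNTL dimer, and their starts differed from each other. CRY1, on chromosome 12, had 2 summits at its start, at 107487753 and 107487536, with fold enrichments of 4.43 and 4.39. They had 102 and 83 ChIP fragments, but over backgrounds of 14.0 and 11.3 input fragments, and 14.0 is the highest background of any clock summit. The highest value of the CRY1 window belonged to its far edge. At 107381065, 3.94 kb beyond the estimated 3′ end, the fold enrichment was 15.6 with 162 fragments over a background of 5.74. RefSeq places MTERF2, a mitochondrial transcription termination factor gene, on that side of CRY1.

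CRY2, on the short arm of chromosome 11, had a fold enrichment of 10.4 near its start, 0.791 kb into the gene at 45868791, with 177 ChIP fragments over a background of 10.0. A summit 3.17 kb upstream, at 45864833, had 7.02. Inside the gene, 26.4 kb from the start, a summit at 45894424 had 3.34. The last, at 45907202, lay 2.202 kb beyond the estimated 3′ end and had 5.10. MAPK8IP1, which encodes a scaffold protein of the JNK pathway, is the RefSeq neighbour on that side. At the starts, the counting intervals of CRY2 (8.95 to 12.0) and CRY1 (3.62 to 5.36) did not overlap. They cover the ChIP fragments and hold the background fixed.

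The genes of the secondary loop held the highest value of the set, at NR1D1, and at BHLHE40 a row of summits that were all above the list median. NR1D1 encodes REV-ERB alpha, a nuclear receptor that represses ARNTL. Its window, on the long arm of chromosome 17, held 4 summits, of which 3 lay within 2 kb of the start. The strongest of all 49 was at 38256959, 41 bp from the estimated start, with 234 ChIP fragments over a background of 8.26. Its fold enrichment of 16.3 was higher than that of 98.1% of the list, and its −log10 q was 124.9. A second strong summit lay 1.58 kb into the gene at 38255417, with 238 fragments and a fold enrichment of 14.0, and shared an interval of 740 bp with one of 7.58 at 38255686. The remaining summit, 7.60 kb upstream at 38264596, had 3.76. THRA, the thyroid hormone receptor alpha gene, overlaps NR1D1 at its 3′ end, and no summit was listed on that side of the window.

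BHLHE40 encodes a basic helix-loop-helix repressor that binds E-boxes itself. Its 26-kb window on chromosome 3 held 6 summits with fold enrichments of 7.81 to 11.1, the narrowest range among the loci with more than 3 summits. An interval of 1308 bp just upstream of the start, from 5019715 to 5021022, held 3 of them, with 173, 171 and 130 ChIP fragments and fold enrichments of 9.33, 11.1 and 9.38. The others lay 3.02 kb upstream (9.18), 1.18 kb into the gene (7.81) and 1.69 kb beyond the estimated 3′ end (8.25). All 6 were above the list median of 5.35. The antisense transcript BHLHE40-AS1 overlaps the gene, and a peak has no strand, so the signal cannot be given to either. Other loci have neighbours too. In RefSeq, TMEM165 and the noncoding LOC124900704 overlap CLOCK, among others. VAMP3 lies on the upstream side of PER3, the noncoding LOC124903009 on that of CRY1, and HES6 on the 3′ side of PER2. Summits were placed by window alone, and which gene they act on was not tested.

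DBP, a D-box binding transcription factor and a direct output gene of the clock, had 10 summits in 28 kb on chromosome 19. An interval of 1049 bp across the start held 4. The strongest, 75 bp from the estimated start at 49141075, had 177 ChIP fragments over a background of 7.14 and a fold enrichment of 14.1. Beside it, summits at 49140833, 49141503 and 49141317 had 10.2, 6.73 and 3.77. A summit 3.11 kb into the gene, at 49137894, had 8.50 with 184 fragments over a background of 13. Between these, 49138979 and 49139187 had 4.76 and 2.86, and 2.86 was the lowest of all 49. Far upstream, 8.65 and 8.97 kb from the start, 2 summits had 9.12 and 8.67, on the side where RefSeq places CA11 and SEC1P. On the 3′ side, where SPHK2 overlaps DBP, the summit at 49127437 had 5.16. Of occupied 28-kb tiles, 0.890% held at least as many summits. In tiles of their own window width, that share was 5.74% for BHLHE40, 18.4% for NR1D1 and 29.4% for CRY2. It was 46.2% for CRY1, 49.9% for CLOCK and 50.7% for PER3. The tiles were not matched for genes.

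**Figure D3:**
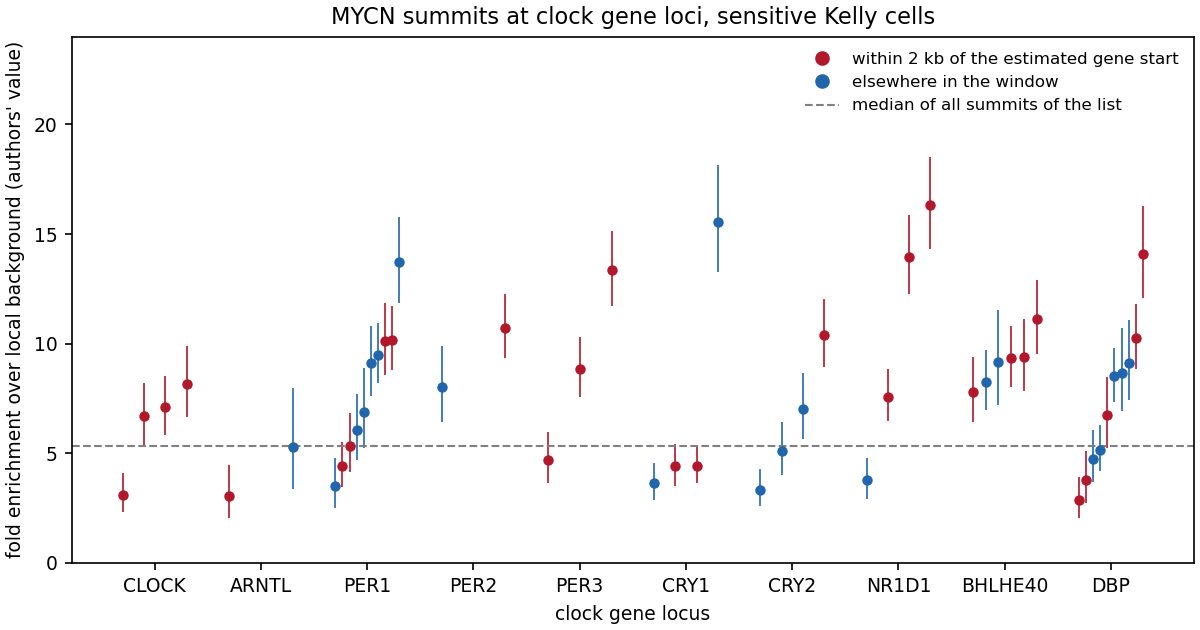
Fold enrichment (vertical axis, authors' value) of each of the 49 summits is plotted by locus, in red within 2 kb of the estimated start and in blue elsewhere. Bars are exact Poisson 95% intervals of the ChIP fragments with the background held fixed, and the dashed line is the list median of 5.35. NR1D1 reaches 16.3, and both ARNTL points lie under that line.

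By the strongest summit, the loci ran from NR1D1 (16.3) through CRY1 (15.6), DBP (14.1), PER1 (13.7), PER3 (13.4), BHLHE40 (11.1), PER2 (10.7), CRY2 (10.4) and CLOCK (8.14) to ARNTL (5.30). The order of neighbours is not resolved: at 9 of 9 neighbouring pairs the counting intervals overlapped. With the background held fixed, the intervals of the ends are apart, at 14.3 to 18.5 for NR1D1 and 3.39 to 7.98 for ARNTL. PER1, CRY1 and ARNTL had their strongest summit elsewhere than within 2 kb of the start. There PER1 had 10.2, CRY1 4.43 and ARNTL 3.07, while the other 7 loci had the values just given, so the order changed and ARNTL was again last. The strongest start summit had a fold enrichment of 10.2 to 16.3 at 7 loci, PER1, PER2, PER3, CRY2, NR1D1, BHLHE40 and DBP. It was 8.14 at CLOCK, 4.43 at CRY1 and 3.07 at ARNTL.

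**Figure D4:**
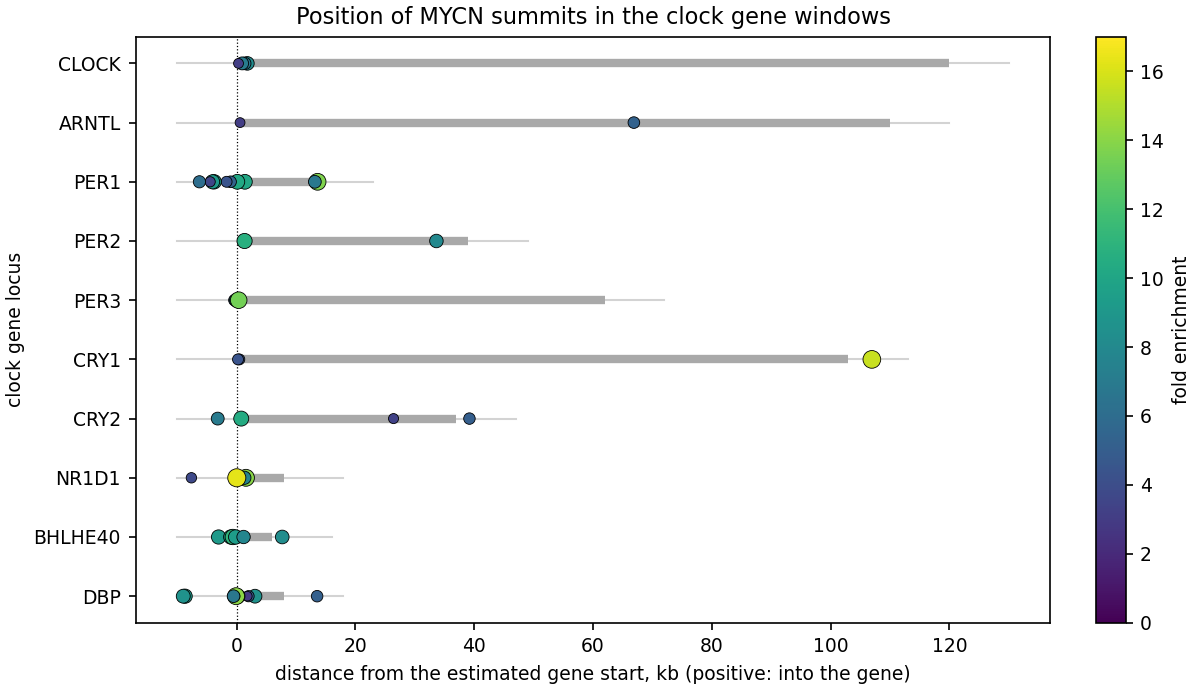
The horizontal axis gives the distance of each summit from the estimated gene start in kb, positive into the gene, for each locus down the page. Thick grey bars are the estimated genes, thin lines the windows, and colour and size give fold enrichment. Each of the 10 loci has at least 1 point within 2 kb of 0, at ARNTL, PER2 and CRY2 only 1, and the bright CRY1 point lies 107 kb away.

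Of the 49 summits, 28 lay within 2 kb of the estimated start and 21 elsewhere. The median fold enrichment was 7.97 near the start and 7.02 elsewhere, with medians of 119.5 and 82 ChIP fragments. A value of 10 was reached by 10 of the 28 and by 2 of the 21, the far summits of PER1 and CRY1. Against the estimated gene starts and ends, 24 summits lay in gene bodies, 18 upstream and 7 beyond the 3′ end, the last at PER1, CRY1, CRY2, BHLHE40 and DBP. This split is approximate. Summits as close to the estimated start as 9 bp at PER3 or 41 bp at NR1D1 could lie on either side of the true start. In CLOCK and ARNTL, whose genes span most of windows of 140 and 130 kb, 1 of 6 summits lay more than 2 kb from the start.

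The chromosomes of these genes differ in their summits. PER1 and NR1D1 share chromosome 17, whose 3860 summits had a median fold enrichment of 4.87. Their strongest summits were higher than 97.8% and 99.0% of that chromosome's summits. ARNTL and CRY2 share chromosome 11, with a median of 5.51 over 3358 summits. There the strongest CRY2 summit was higher than 88.1% of the chromosome's summits, and the strongest ARNTL summit than 46.1%. On chromosome 4, where the median was 6.0, the strongest CLOCK summit was higher than 73.6%.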

How the data were processed

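MYCN ChIP-seq of Kelly cells was used as 1 deposited peak list of the sensitive cells; the list named for the resistant cells was identical. The submitters' processing notes name MACS2 2.1.1, deepTools 2.2.4, Picard, SAMtools 1.3.1 and STAR 2.5.1b, with build hg19. Neither their settings nor the way of combining the 2 ChIP samples was stated in the labels. The deposited fold enrichment is a ratio to local background. The deposited values also give each summit a −log10 p-value and q-value, and the deposited score is 10 times the −log10 q.

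The members and lists were chosen with earlier results of these data known. All 10 loci are named, each with its strongest summit and the one nearest its start. ChIP fragments and background were solved from fold enrichment and p-value with MACS2's relations, (pileup + 1) over (background + 1) and a Poisson tail. A single scale, 0.641, gave whole fragment numbers at 64657 of 64657 summits, with −log10 p within 0.0005. At 24 summits more than 1 number met that tolerance and the closest was taken. The procedure was tested on simulated data. Lowest and highest numbers were 13 and 280, and ChIP fragments were 1.56 times the input fragments; total read numbers are not known. Intervals on fragments are exact Poisson and on shares exact binomial (Clopper-Pearson), at 95%, and cover counting error only. Those on fold enrichment hold the background fixed. They leave out the counting error of the input fragments and are therefore too narrow. No p-value was computed, since no replicate list was at hand.

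Positions are hg19, counted from 1. No hg19 annotation was used, so exons and introns were not assigned, and other clock genes were not analysed here. Gene strands, neighbour names and promoters are from RefSeq GRCh38.p14, where ARNTL is listed as BMAL1. The RefSeq gene length was within 2.5 kb of the window less 20 kb for 9 of 10 loci. PER2, whose RefSeq record is longer, was the exception. Thresholds, window sizes, distances and loci left out in turn were varied. Python 3.11.15, numpy 2.4.6, pandas 2.3.3, scipy 1.17.1 and matplotlib 3.10.9 were used.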

Additional observations from a re-analysis of the deposited data

How the results depend on the processing

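No paired analysis was possible because the 2 ChIP samples were deposited as 1 common list, and leaving out a replicate was not possible either. The 49 clock summits became 24 in the estimated gene bodies alone and 79 in windows extended by 10 kb on each side. The number of bases counted changed with the window, and so did the summits per base. The density ratio of 3.26 became 2.23 in the estimated gene bodies alone and 4.09 in the extended windows, where the median fold enrichment was 6.90. Summits were thus denser in the flanks than in the estimated gene bodies. With a −log10 q of at least 10 that ratio was 4.35, with 9 of 10 loci holding a summit. ARNTL was the locus lost. It ran from 2.70 to 3.83 with each locus left out in turn (lowest without DBP). The median fold enrichment of 7.81 was 6.90 to 8.98 under changes of threshold, window, counting or loci, and 7.97 for start summits alone, an alternative chosen after seeing the data. Starts with a summit within 2 kb, 10 of 10, were 9 with a −log10 q of at least 10, 8 with a fold enrichment of at least 5 (without CRY1 and ARNTL), 9 within 1 kb (without PER2) and 10 within 5 kb. Depth limits the weakest locus most: ARNTL rests on 20 and 24 ChIP fragments, where the lowest number in the list is 13.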

Other observations

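Which clock locus ranks second depends on the measure. By fold enrichment of the strongest summit it was CRY1, with 15.6, whose strongest summit lies beyond the estimated 3′ end of the gene. By the most ChIP fragments over 1 summit CRY1 came after 7 other loci, with 162, while PER3 and NR1D1 shared the first place with 238 and PER2 followed with 216. Within 2 kb of the estimated start, the strongest summit of CRY1 had 4.43, and that of ARNTL alone was lower. Over the whole windows, CLOCK and ARNTL had the lowest maxima of both measures, with at most 109 and 24 fragments at 1 summit.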
